A study of Mus musculus with 15 samples.

Results

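The genes described here are the collagens and the enzymes and chaperones that modify, fold and cross-link them, 54 of the 55486 genes of a deposited count table. They were taken by name among protein-coding genes: every Col gene with an alpha-chain number (44 chains), the lysyl oxidase genes Lox and Loxl1 to Loxl4, the lysyl hydroxylase genes Plod1 to Plod3, Fkbp14 and Serpinh1 (10 enzymes and chaperones). Their levels came from 15 bulk RNA-seq libraries of flow-sorted macrophages of primary mouse brain tumours. All libraries, of every group, came from tumours of the same kind, in which the growth factor PDGFB is enforced in Nestin-positive progenitor cells of mice that lack Ink4a/Arf, per the labels; healthy brain was not analysed here. The groups were lipid-laden monocyte-derived macrophages (MDM, cells that enter from the blood; 3 libraries), non-lipid-laden MDM (4), lipid-laden microglia (macrophages resident in the brain; 4) and non-lipid-laden microglia (4). The stain and gate that defined lipid load, the age of the mice and any pooling of mice are not stated in the labels. The titles number the libraries 221, 224, 431 and 718. Values of several libraries are listed in that order throughout, with no number 431 for lipid-laden MDM, which was not analysed here.

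Collagens are trimers of alpha chains that form the fibrils, networks and filaments of the extracellular matrix. In the endoplasmic reticulum their lysines and prolines are hydroxylated and chaperones help the triple helix to fold; outside the cell, lysyl oxidases start the cross-links that stabilise the assembled matrix. In the brain, fibrillar collagens are found mainly around vessels and in the meninges, where fibroblasts and mural cells make them, and collagen IV lies in the basement membrane of vessels.

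Total counts were 9306839 to 10699235 in lipid-laden MDM, 7798952 to 11419338 in non-lipid-laden MDM, 8962885 to 9797627 in lipid-laden microglia and 7842531 to 9658143 in non-lipid-laden microglia. All levels are in CPM (counts relative to the TMM-scaled library size, on a common scale for all libraries), and 3 counts, the limit that a count of 0 allows for counting error, were worth 0.272 to 0.390 CPM in a library. The cell labels were checked against marker genes. Summed over 10 microglia markers, the level was 7139 to 10786 CPM in lipid-laden MDM, 2572 to 4084 CPM in non-lipid-laden MDM, 6655 to 17365 CPM in lipid-laden microglia and 10408 to 16004 CPM in non-lipid-laden microglia, and none of these markers was at 0 in any group. Summed over 10 MDM markers it was 1474 to 1574, 3443 to 3802, 279 to 686 and 249.8 to 392 CPM in the same groups. The lipid-laden MDM libraries thus had more microglia marker RNA and less MDM marker RNA than non-lipid-laden MDM, which goes with every comparison of these groups, and its part in them was not tested. Number 221 had the lowest microglia marker sum in each of the 4 groups, with and without lipid load. In bulk samples, fewer cells of a type and less RNA per cell cannot be told apart.

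Levels of different genes were compared as CPM per kilobase of exon. Averaged over the 15 libraries, Plod1 stood at 65.9 CPM per kilobase and Plod3 at 30.5, followed by Serpinh1 at 6.99, Loxl3 at 6.19 and Fkbp14 at 3.19. These 5 enzymes and chaperones stood above every chain in that mean, where Col1a1 came next at 3.04, but not in any single group. Lox ranked 9th and Plod2, Loxl1, Loxl4 and Loxl2 21st or lower of the 54. Col14a1 stood above Serpinh1 and Fkbp14 in both MDM groups. Likewise Col1a1 stood above Loxl3 and Fkbp14 in lipid-laden microglia, and Col11a1 and Col27a1 above Serpinh1, at 2.77, in non-lipid-laden microglia. The order of the chains differed between groups. The chain with the highest mean level was Col14a1 in lipid-laden MDM, at 4.49 CPM per kilobase, and in non-lipid-laden MDM, at 1.84. It was Col1a1 in lipid-laden microglia, at 9.46 CPM per kilobase, and Col11a1 in non-lipid-laden microglia, at 2.98, with Col27a1 next at 2.87. Of the 54 genes, 35 passed the filter on low counts (all 10 enzymes and chaperones and 25 chains), and the other 19 were not tested. Some of the 35 passed through the group in which they were high, so a count of differences over them is a description of these genes.

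**Figure D1:**
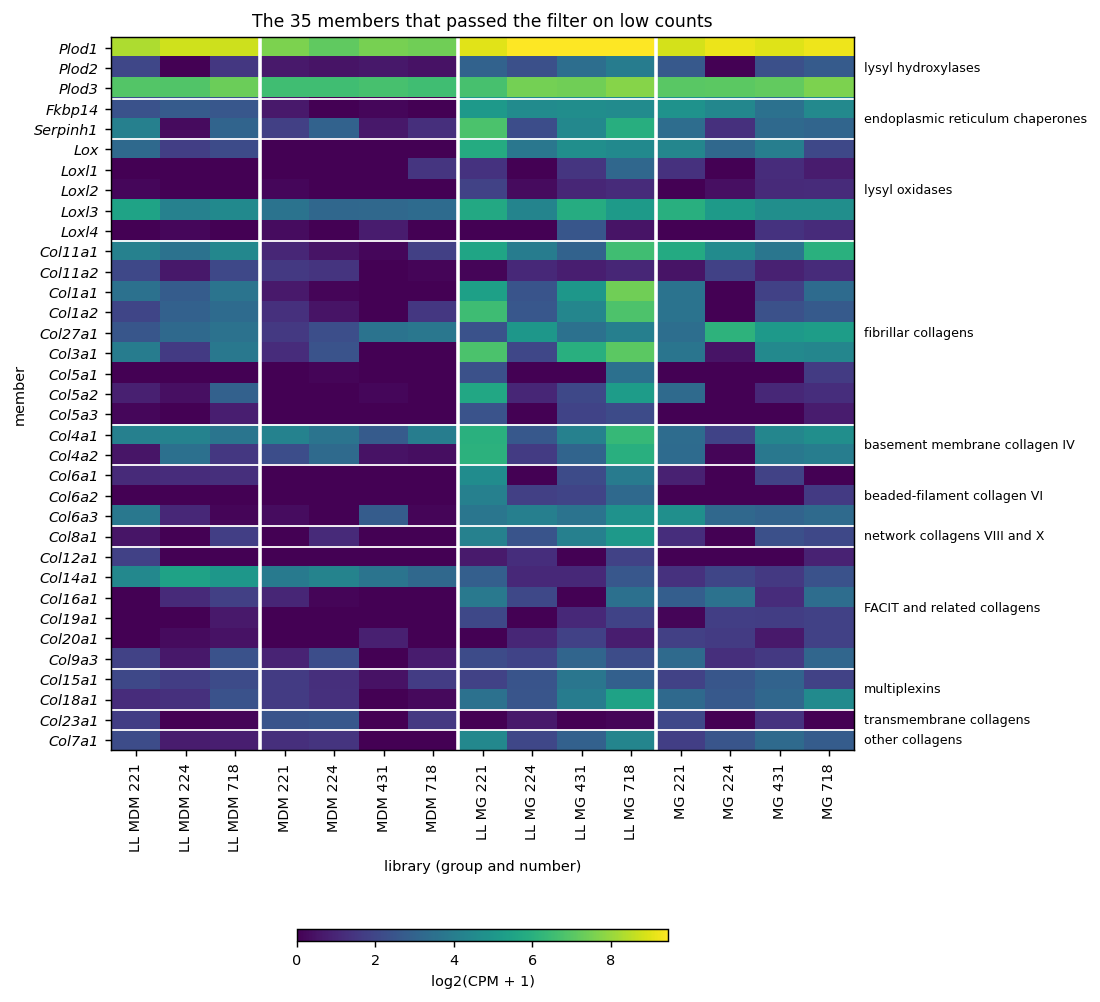
Levels of the 35 tested genes as log2(CPM + 1) in each library (columns, named by group and number; LL, lipid-laden; MG, microglia), with the genes in rows grouped by role. Plod1 and Plod3 are high in all 15 libraries, and the rows of Fkbp14, Lox and Col11a1 are darkest in the 4 non-lipid-laden MDM libraries.

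The origins were set against each other first in cells without lipid load. Of the 35 genes, 12 differed at an adjusted p under 0.05 (edgeR's quasi-likelihood test, adjusted over 14843 genes), against 23.2% of all genes tested, and 11 of the 12 were lower in MDM. Lower were the lysyl hydroxylases Plod1 and Plod3, the chaperone Fkbp14, the lysyl oxidases Lox and Loxl3 and the chains Col1a1, Col5a2, Col11a1, Col27a1, Col18a1 and Col19a1; of all genes, 12.5% were lower and 10.7% higher. The exception was Col14a1, a fibril-associated collagen, which was higher in MDM. Over the 35 genes the median fitted log2 fold change was -2.96, or -2.49 with genes at or near 0 counts set to their bound or counting ratio, beside -0.12 over all genes.

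Between lipid-laden MDM and lipid-laden microglia, 3 of the 35 genes differed, against 2.78% of all genes: Col14a1 was higher, and Plod1 and Fkbp14 were lower, in MDM. These are also called, in the same direction, between the non-lipid-laden groups, which are other libraries but entered the same fit. The median log2 fold change was -2.58 with such genes at their bound, beside -0.03 over all genes. Of all genes, 2.20% were higher and 0.579% lower.

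Within MDM, 6 of the 35 genes were higher in lipid-laden than in non-lipid-laden cells and none was lower, against 8.17% of all genes called, 5.21% higher and 2.96% lower. They were Plod1, Fkbp14, Lox, Loxl3, Col11a1 and Col1a1. This comparison shares the non-lipid-laden MDM libraries with the comparison of origin, so the values of each are given side by side below. The median log2 fold change was 1.31, or 1.43 with genes at or near 0 counts at their bound, beside 0.04 over all genes.

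Within microglia, no gene of the 35 was called between lipid-laden and non-lipid-laden cells, and edgeR called 0.0% of all genes there. At an unadjusted p under 0.05 there were 9 of the 35 genes, against 1367 of all 14843, all higher in lipid-laden microglia, and the smallest adjusted p was 0.341. DESeq2 and edgeR with a replicate block called none of the 35 either. The 9 genes were Col1a1, Col1a2, Col3a1, Col5a2, Col4a1, Col6a1, Col6a2, Col8a1 and Serpinh1, and their values below differ widely between libraries. Compared between libraries of the same number, which pair the microglial groups, Col4a1 and Col6a1 were higher with lipid load in 3 of 4 pairs and the other genes in all 4, a count made after the genes were picked by this comparison. The median log2 fold change was 0.88, beside -0.02 over all genes.

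A test of whether lipid load went with unequal changes in MDM and microglia passed for 3 of the 35 genes, Fkbp14, Lox and Plod1, each with the larger effect in MDM, against 2.53% of all genes called, 1.60% with the larger and 0.930% with the smaller effect in MDM. In the order given here, DESeq2 called 17, 6, 8, 0 and 4 of the 35 genes in the 5 comparisons, against 27.8%, 5.38%, 13.4%, 1.10% and 6.47% of all genes. The replicate block gave 13, 4, 7, 0 and 4, against 26.7%, 3.83%, 10.3%, 0.802% and 4.43%. Their values follow with those of the other genes, ordered from the enzymes and chaperones inside the cell to the chains and then to the cross-linking enzymes outside it.

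**Figure D2:**
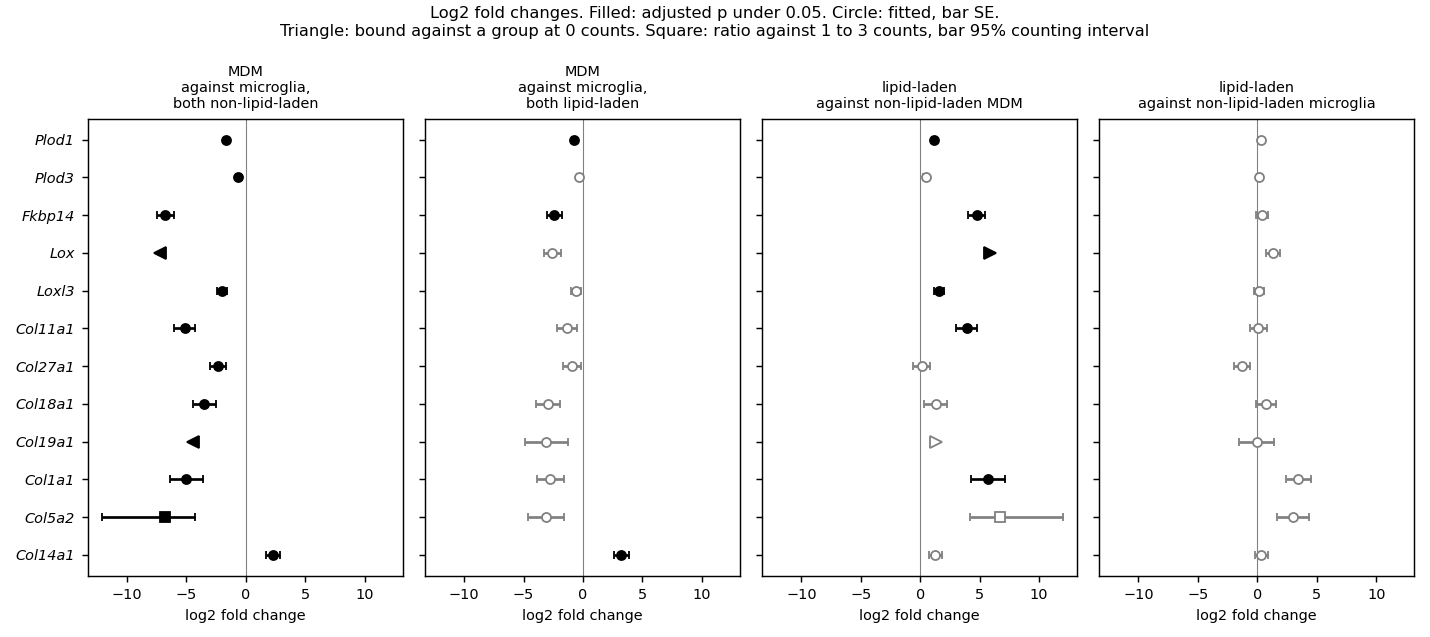
Log2 fold changes of the 12 genes called in at least 1 comparison, by comparison (panels); circles are fitted values with SE, triangles are bounds against a group at 0 counts and squares are ratios against 1 to 3 counts with a 95% counting interval; filled symbols have an adjusted p under 0.05. All filled symbols but Col14a1 lie below 0 in MDM against microglia, those within MDM lie above 0, and none is filled within microglia.

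Plod1, the lysyl hydroxylase of the triple-helical part of collagen (ENSMUSG00000019055, chromosome 4, 147909753 to 147936767, mm10), had the highest level of these genes. It was at 316, 445 and 426 CPM in lipid-laden MDM and at 195, 143, 184 and 171 CPM in non-lipid-laden MDM. In microglia it was at 529, 702, 710.2 and 694 CPM with lipid load and at 467, 591, 519.9 and 594 CPM without. The libraries of the 2 MDM groups did not overlap with each other or with microglia, while the 2 microglial groups overlapped. Non-lipid-laden MDM were lower than microglia by a log2 fold change of -1.65 (edgeR adjusted p = 2.49e-06, SE 0.15), and lipid-laden MDM were lower than lipid-laden microglia by -0.74 (edgeR adjusted p = 0.0222, SE 0.16). Lipid-laden MDM were above non-lipid-laden MDM by 1.19 (edgeR adjusted p = 0.000326, SE 0.16), against 0.28 (edgeR adjusted p = 0.597, SE 0.15) in microglia. The difference of these effects was 0.91 (edgeR adjusted p = 0.0359, SE 0.22). The difference between the lipid-laden groups lost its call without any 1 lipid-laden MDM library and without lipid-laden microglia 431 or 718 (up to 0.0924), and that of the effects kept it in 5 of 15 such fits, those without lipid-laden microglia 224, non-lipid-laden microglia 221, non-lipid-laden MDM 221 or 431, or lipid-laden MDM 221 (up to 0.112). With only the lipid-laden groups in the fit their difference had an adjusted p of 0.0945, and with no filter on low counts that of the effects had 0.0532.

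Fkbp14, a prolyl isomerase of the endoplasmic reticulum that acts on procollagen (ENSMUSG00000038074, chromosome 6, 54577604 to 54597308, mm10), was nearly absent from non-lipid-laden MDM. Its level was 4.19, 5.52 and 4.91 CPM in lipid-laden MDM and 0.583, 0, 0.130 and 0 CPM in non-lipid-laden MDM, where the counts were 5, 0, 1 and 0. Microglia had 33.6, 22.9, 24.2 and 22.6 CPM with lipid load and 27.8, 20.0, 10.5 and 21.2 CPM without. No library of an MDM group reached the lowest microglial library, and the MDM groups did not overlap. The log2 fold change was -6.79 (edgeR adjusted p = 8.54e-06, SE 0.73) in non-lipid-laden MDM against microglia and -2.40 (edgeR adjusted p = 0.0432, SE 0.60) between the lipid-laden groups. With lipid load it was 4.76 (edgeR adjusted p = 0.000821, SE 0.72) in MDM and 0.38 (edgeR adjusted p = 0.911, SE 0.51) in microglia, and the difference of these effects was 4.38 (edgeR adjusted p = 0.0140, SE 0.88). Between the lipid-laden groups the call was kept in 5 of 15 fits that left out 1 library, those without a non-lipid-laden MDM library or without non-lipid-laden microglia 431 (up to 0.164 in the others); it was also lost without both lipid-laden libraries numbered 221 (adjusted p = 0.190, chosen after seeing the data). Fkbp14 shares 208 of its 4149 exon bases with Plekha8 on the opposite strand, and the strand setting of the counting is not given; Plekha8 was also lower in non-lipid-laden MDM than in microglia (log2 fold change -2.51, edgeR adjusted p = 0.000593) and higher in lipid-laden than in non-lipid-laden MDM (1.69, edgeR adjusted p = 0.0290).

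The promoter windows of Plod1 and Fkbp14 are shown because these genes were called in the same 4 comparisons. Each runs from 250 bases before to 50 bases after a RefSeq start site on the minus strand of GRCm38.p6 (Plod1, chr4:147936727-147937026; Fkbp14, chr6:54593125-54593424). Capitals mark matches, on either strand, to ACGTG or GCGTG, the core of the hypoxia response element, or to CCAAT.
Plod1: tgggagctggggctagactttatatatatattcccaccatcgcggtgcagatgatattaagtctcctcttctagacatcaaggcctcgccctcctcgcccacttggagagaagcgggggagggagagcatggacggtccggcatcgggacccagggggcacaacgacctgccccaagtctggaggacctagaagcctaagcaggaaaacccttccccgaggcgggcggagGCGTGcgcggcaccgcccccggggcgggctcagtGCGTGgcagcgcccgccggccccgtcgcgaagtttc
Fkbp14: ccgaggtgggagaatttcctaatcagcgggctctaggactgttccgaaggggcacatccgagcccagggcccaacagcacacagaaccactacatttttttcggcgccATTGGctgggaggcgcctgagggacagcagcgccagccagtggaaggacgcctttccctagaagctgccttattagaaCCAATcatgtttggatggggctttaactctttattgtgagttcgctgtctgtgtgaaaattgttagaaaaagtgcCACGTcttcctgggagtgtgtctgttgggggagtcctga
Plod1 has GCGTG at 2 positions and no CCAAT, while Fkbp14 has CCAAT once on each strand and the hypoxia core once, on the opposite strand. A further window of Fkbp14 (chr6:54597295-54597594) holds neither motif. Of 32851 windows in the RefSeq table, 43.8% hold the hypoxia core and 37.4% hold CCAAT, against 18 of 44 windows (40.9%) and 15 of 44 (34.1%) for the 40 collagen and enzyme genes found in it; an ACGTG can overlap with its own reverse complement, and a window was counted once. These shares are close to those of all windows, and a match is not shown to be a site.

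Plod3, which hydroxylates lysines and also transfers sugars to them (ENSMUSG00000004846), was at 121, 119 and 160.1 CPM in lipid-laden MDM and 94.9, 92.9, 106 and 94.3 CPM in non-lipid-laden MDM. It was at 105, 179, 172 and 215 CPM in lipid-laden microglia and 130.0, 136, 145 and 196 CPM in non-lipid-laden microglia. All 4 non-lipid-laden MDM libraries lay below those of microglia without lipid load, with a log2 fold change of -0.65 (edgeR adjusted p = 0.0265, SE 0.20). This call was lost without non-lipid-laden MDM 221, 224 or 718 or non-lipid-laden microglia 431 or 718 (up to 0.104). Plod3 shares 529 of its 4519 exon bases with Znhit1 on the opposite strand, which went the other way in that comparison (log2 fold change 0.63, edgeR adjusted p = 0.0215). Plod2, which hydroxylates the ends of collagen chains, had low counts: 28, 0 and 20 in lipid-laden MDM, 5, 4, 4 and 4 in non-lipid-laden MDM, against 68, 36, 94 and 147 in lipid-laden microglia and 51, 0, 34 and 44 in non-lipid-laden microglia. It was not called in any comparison.

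Serpinh1, the collagen chaperone HSP47 (ENSMUSG00000070436), was at 16.6, 0.216 and 7.37 CPM in lipid-laden MDM and 2.45, 6.95, 0.520 and 1.45 CPM in non-lipid-laden MDM. Lipid-laden microglia had 109.6, 3.68, 20.3 and 60.1 CPM and non-lipid-laden microglia 9.40, 1.51, 8.53 and 7.59 CPM. The lipid-laden microglia libraries 221 and 718 were above all others, and each lipid-laden library was above the non-lipid-laden one of its number, although the 2 groups overlapped. With lipid load the log2 fold change was 2.84 (edgeR adjusted p = 0.409, SE 1.05) in microglia, and Serpinh1 was called in no comparison.

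**Figure D3:**
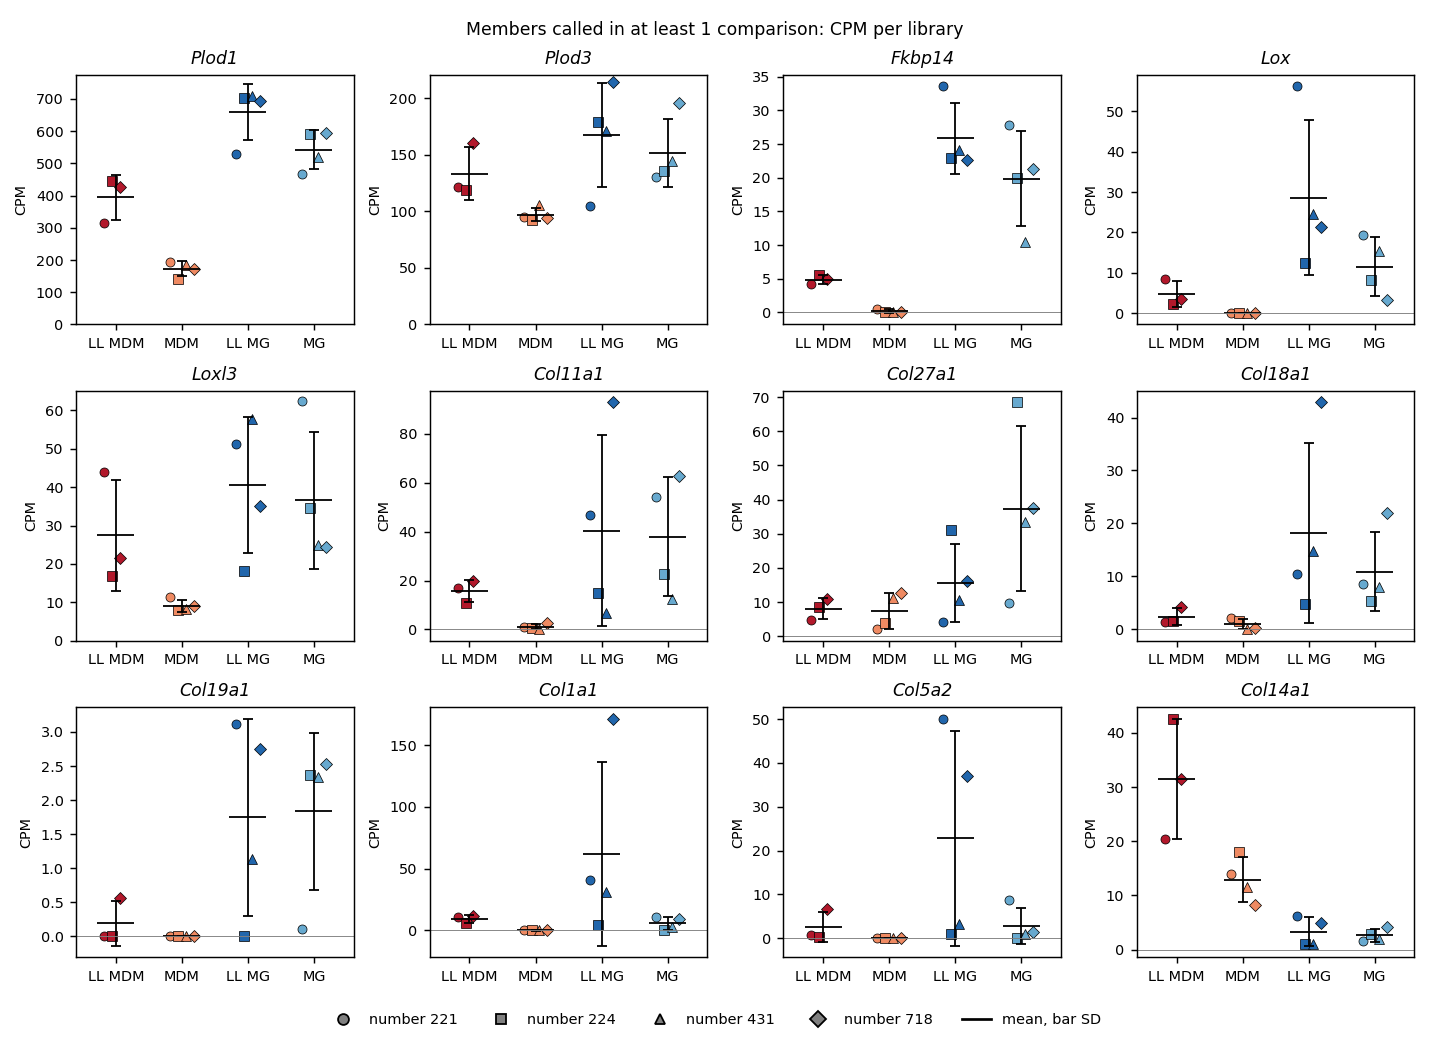
CPM per library of the 12 genes called in at least 1 comparison, by group (LL, lipid-laden; MG, microglia), with the library numbers as symbols and the mean and SD over 3 or 4 libraries as lines. For Plod1, Fkbp14 and Lox the mean of lipid-laden MDM lies between non-lipid-laden MDM and the microglial groups, and for Col14a1 all 3 lipid-laden MDM libraries lie above the others.

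Among fibrillar collagens, 9 of 11 were tested; 4 were lower in non-lipid-laden MDM than in microglia, against 12.5% of all genes, and 2 were higher in lipid-laden than in non-lipid-laden MDM, against 5.21% of all genes. Col11a1, a minor fibril component that limits fibril width (ENSMUSG00000027966, chromosome 3, 114030540 to 114220718, mm10), was at 16.7, 10.9 and 19.7 CPM in lipid-laden MDM and at 1.05, 0.403, 0.130 and 2.45 CPM in non-lipid-laden MDM. Its microglial levels were 46.9, 14.7, 6.90 and 92.9 CPM with lipid load and 54.1, 22.6, 12.3 and 62.8 CPM without. The non-lipid-laden MDM libraries lay below all others. Their log2 fold change was -5.16 against microglia (edgeR adjusted p = 0.000628, SE 0.89), and lipid-laden MDM were above them by 3.90 (edgeR adjusted p = 0.0124, SE 0.89), a call that limma-voom did not make (adjusted p = 0.178). The difference of the lipid-laden effects was 3.81 (edgeR adjusted p = 0.0893, SE 1.13), or 0.00113 with the replicate block, within a range of 0.00113 to 0.288 over the alternatives.

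Col1a1 and Col1a2 are the chains of collagen I, the main fibrillar collagen. Col1a1 (ENSMUSG00000001506, chromosome 11, 94936224 to 94953042, mm10) was at 10.6, 5.84 and 11.4 CPM in lipid-laden MDM and 0.583, 0.101, 0 and 0 CPM in non-lipid-laden MDM. It was at 40.9, 4.57, 31.5 and 171 CPM in lipid-laden microglia and 11.2, 0, 2.57 and 8.98 CPM in non-lipid-laden microglia, so non-lipid-laden microglia 224 overlapped with MDM. Non-lipid-laden MDM were lower than microglia by -5.01 on the log2 scale (edgeR adjusted p = 0.0170, SE 1.40; 0.0515 without non-lipid-laden MDM 718), and lipid-laden MDM were above them by 5.71 (edgeR adjusted p = 0.0223, SE 1.43). The lipid-load call was lost without non-lipid-laden MDM 224, 431 or 718 or lipid-laden MDM 718 (up to 0.0669), and neither held with limma-voom (adjusted p = 0.448 against microglia and 0.257 with lipid load). Col1a2 was at 2.97, 6.60 and 8.88 CPM in lipid-laden MDM, 1.52, 0.403, 0 and 1.90 CPM in non-lipid-laden MDM, 90.6, 5.01, 19.2 and 112 CPM in lipid-laden microglia and 11.2, 0, 4.09 and 5.44 CPM in non-lipid-laden microglia, and was not called.

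Col3a1, the partner of collagen I in compliant tissues, was at 14.8, 2.06 and 12.8 CPM in lipid-laden MDM, 1.28, 4.33, 0 and 0 CPM in non-lipid-laden MDM, 109.7, 3.01, 61.8 and 134 CPM in lipid-laden microglia and 11.7, 0.430, 21.3 and 19.3 CPM in non-lipid-laden microglia. Col5a1, Col5a2 and Col5a3 encode collagen V, which starts the assembly of collagen I fibrils. Col5a2 had counts of 7, 3 and 70 in lipid-laden MDM, 0, 0, 1 and 0 in non-lipid-laden MDM, against 499, 9, 31 and 363 in lipid-laden microglia and 85, 0, 9 and 11 in non-lipid-laden microglia. The summed counts of 1 in non-lipid-laden MDM and 105 in microglia made the MDM level 110.3-fold lower (95% exact binomial interval 19.4 to 4398; edgeR adjusted p = 0.0287). This call was lost without any 1 non-lipid-laden MDM library or non-lipid-laden microglia 221 (up to 0.114) and with limma-voom (adjusted p = 0.356). Against the same count, the 80 counts of lipid-laden MDM, 70 of them in library 718, gave an edgeR adjusted p of 0.0698, or 0.0308 with the replicate block (range over the alternatives 0.00417 to 0.538).

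Col5a1 had 143 counts in lipid-laden microglia, in libraries 221 and 718, 17 in non-lipid-laden microglia, in library 718, 1 in non-lipid-laden MDM and none in lipid-laden MDM. Col5a3 counts were 1, 0 and 8 in lipid-laden MDM, 0, 0, 0 and 0 in non-lipid-laden MDM, against 44, 0, 27 and 34 in lipid-laden microglia and 0, 0, 0 and 5 in non-lipid-laden microglia. Neither was called. Col27a1, a fibrillar collagen best known from cartilage, had another distribution, with 4.74, 8.55 and 11.0 CPM in lipid-laden MDM, 1.98, 3.83, 11.2 and 12.7 CPM in non-lipid-laden MDM, 4.22, 31.0, 10.7 and 16.1 CPM in lipid-laden microglia and 9.71, 68.5, 33.6 and 37.7 CPM in non-lipid-laden microglia. Here library 224 was the highest and library 221 the lowest in both microglial groups. The log2 fold change in non-lipid-laden MDM against microglia was -2.33 (edgeR adjusted p = 0.0225, SE 0.69), lost without non-lipid-laden microglia 224 or non-lipid-laden MDM 221 or 224 (up to 0.0828) and with limma-voom (adjusted p = 0.0556). Col11a2 was at 3.19, 0.541 and 3.12 CPM in lipid-laden MDM, 1.98, 1.71, 0 and 0.0906 CPM in non-lipid-laden MDM, 0.100, 1.11, 0.721 and 1.02 CPM in lipid-laden microglia and 0.413, 2.58, 0.818 and 1.26 CPM in non-lipid-laden microglia, with no call.

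Libraries of the same group differed widely in Col1a1, Col1a2, Col3a1 and Col5a2, which were among the genes named within microglia at an unadjusted p under 0.05. Summed over these genes, the level was 291, 13.6, 116 and 454 CPM in lipid-laden microglia and 42.8, 0.430, 29.0 and 35.1 CPM in non-lipid-laden microglia. Library 224 was the lowest in both. The same sum was 29.1, 14.8 and 39.8 CPM in lipid-laden MDM and 3.38, 4.83, 0.130 and 1.90 CPM in non-lipid-laden MDM, and these groups did not overlap.

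Markers of cells that make collagen in the brain were set beside the sum of Col1a1, Col1a2, Col3a1 and Col5a2. Within each of the 4 groups the libraries had the same order by mural marker sum as by the sum of the 4 collagen genes, and by fibroblast marker sum in lipid-laden microglia and non-lipid-laden MDM. Of the further lists given below, progenitor and glioma, astrocyte and neuron markers also gave that order in lipid-laden MDM, a group of 3 libraries. Endothelial markers gave it in non-lipid-laden microglia. The remaining combinations of list and group had another order. The sum over all fibrillar genes had the mural order in both lipid-laden groups. In both non-lipid-laden groups it had another order, so the match there depends on which collagen genes were summed. A list of 12 mural cell markers, all in the table, summed to 130.5, 10.2, 75.5 and 154 CPM in lipid-laden microglia and 26.3, 4.73, 10.4 and 22.5 CPM in non-lipid-laden microglia. Of these markers Higd1b, Kcnj8 and Myh11 were at 0 in non-lipid-laden microglia and none was at 0 in lipid-laden microglia. In MDM the mural markers summed to 13.6, 13.4 and 32.3 CPM with lipid load, where Myh11 was at 0, and to 10.0, 25.6, 4.94 and 9.96 CPM without, where none was at 0, and these groups overlapped. The 12 fibroblast markers summed to 62.2, 35.5 and 58.0 CPM in lipid-laden MDM and 11.7, 18.5, 2.99 and 5.25 CPM in non-lipid-laden MDM, without overlap, and to 305, 75.0, 79.3 and 330.0 CPM in lipid-laden microglia and 167, 125, 77.4 and 136 CPM in non-lipid-laden microglia. Of the fibroblast list, Igf2 and Slc22a6 were at 0 in all 4 groups, Dpt in all but non-lipid-laden microglia, Islr in all but lipid-laden microglia and Ogn in non-lipid-laden MDM. Pdgfra is in this list and also in the list of progenitor and glioma markers below, so the sums of these lists are not separate measures.

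Of the further lists, some differed between groups without overlap. The 15 markers of progenitor and glioma cells summed to 152, 96.3 and 192 CPM in lipid-laden MDM and 16.3, 30.3, 26.5 and 19.2 CPM in non-lipid-laden MDM, where Gpr17 and Sox2 were among the markers at 0. In microglia they summed to 212 to 583 CPM with lipid load and 164 to 519 CPM without, none was at 0, and the ranges overlapped. The 12 endothelial markers summed to 47.3 to 156, 48.9 to 194, 28.2 to 370.2 and 37.3 to 172 CPM in lipid-laden MDM, non-lipid-laden MDM, lipid-laden microglia and non-lipid-laden microglia, and all 4 ranges overlapped; Erg and Slco1a4 were at 0 in lipid-laden MDM, Erg and Tek in non-lipid-laden MDM, Slco1a4 in lipid-laden microglia and Tek in non-lipid-laden microglia. The 9 dendritic cell markers summed, in the same group order, to 175 to 227, 1204 to 2704, 6.33 to 18.7 and 21.7 to 40.0 CPM, with Cd209a, Clec9a and Dpp4 at 0 in lipid-laden microglia. The 10 neuron markers summed to 10.3 to 20.5 CPM in lipid-laden MDM and 0.725 to 9.37 CPM in non-lipid-laden MDM, without overlap, and to 12.8 to 41.2 CPM in lipid-laden microglia and 7.72 to 52.7 CPM in non-lipid-laden microglia; Gad2 and Syt1 were at 0 in all groups but lipid-laden microglia, Gad1 in lipid-laden MDM and Stmn2 in both non-lipid-laden groups. The 10 markers of T and NK cells summed to 45.9 to 93.4 CPM in lipid-laden MDM and 28.1 to 158 CPM in non-lipid-laden MDM, all above the 0.203 to 4.72 CPM of lipid-laden microglia and the 1.17 to 10.9 CPM of non-lipid-laden microglia, where Gzmb and Ncr1 were at 0 in both, Cd3d, Il2rb and Klrb1c with lipid load and Cd3e without. The 10 astrocyte markers summed to 72.5 to 121, 57.9 to 94.9, 101 to 140.2 and 117 to 196 CPM in lipid-laden MDM, non-lipid-laden MDM, lipid-laden microglia and non-lipid-laden microglia, with Gjb6 at 0 in all 4 groups, Slc4a4 in all but lipid-laden MDM and Aqp4 in non-lipid-laden MDM. The 10 markers of myelinating oligodendrocytes summed, in that order, to 167 to 229, 217 to 246, 155 to 209 and 158 to 208 CPM, with Opalin at 0 in all 4 groups, Mal in all but non-lipid-laden microglia, Mog in all but lipid-laden MDM and Ermn in both MDM groups. The part of these marker RNAs in the collagen values was not tested.

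**Figure D4:**
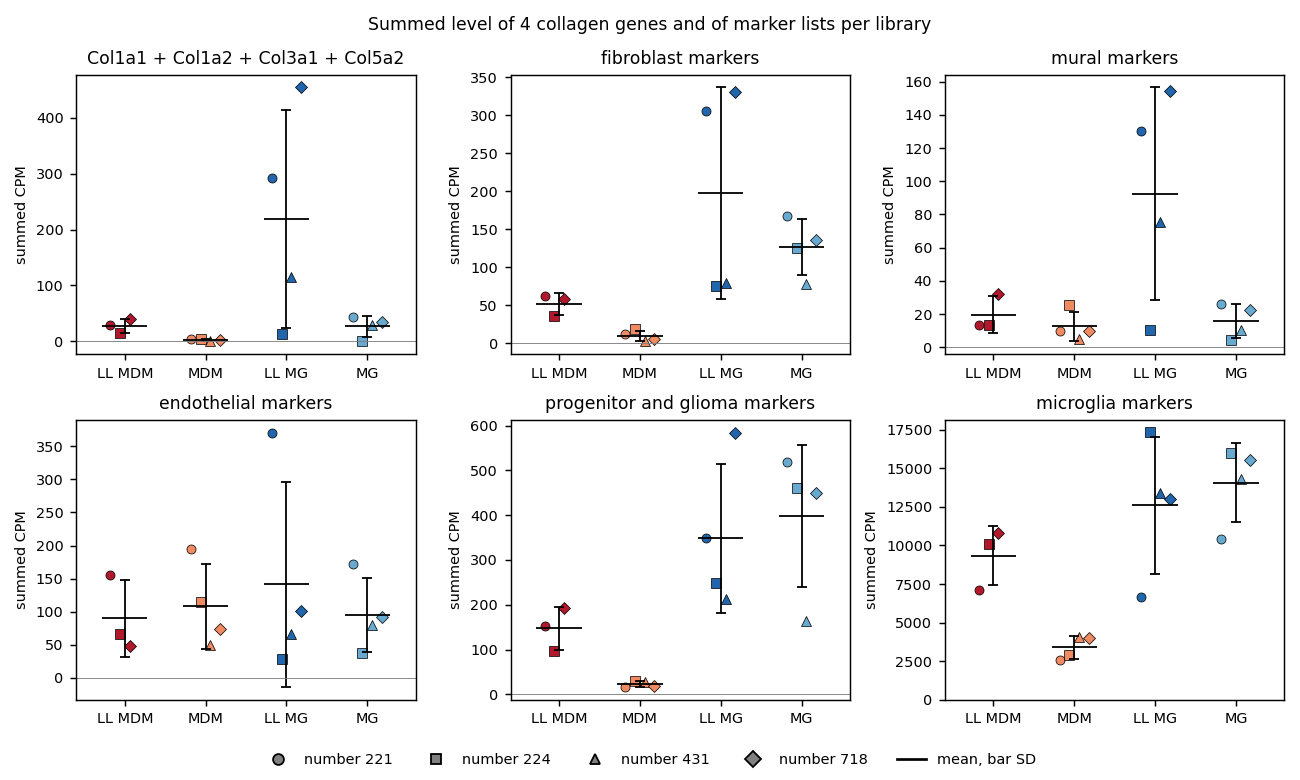
Summed CPM per library of Col1a1, Col1a2, Col3a1 and Col5a2 and of 5 marker lists, by group (LL, lipid-laden; MG, microglia), with library numbers as symbols and the mean and SD over 3 or 4 libraries as lines. In lipid-laden microglia the collagen sum ranges from 13.6 to 454 CPM and the mural marker sum from 10.2 to 154 CPM, with library 718 the highest and 224 the lowest in both.

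Collagen IV forms the network of basement membranes, and Col4a1 and Col4a2 encode its most widespread chains. Col4a1 (ENSMUSG00000031502, chromosome 8, 11198423 to 11312826, mm10) was at 16.5, 17.2 and 12 CPM in lipid-laden MDM and 17.3, 11.6, 5.60 and 15.0 CPM in non-lipid-laden MDM, and at 63.5, 5.12, 16.9 and 80.4 CPM in lipid-laden microglia and 9.20, 2.80, 19.3 and 24.8 CPM in non-lipid-laden microglia. Col4a2 (ENSMUSG00000031503, chromosome 8, 11312805 to 11449287, mm10) was at 0.441, 10.3 and 1.89 CPM in lipid-laden MDM and 3.73, 8.76, 0.390 and 0.272 CPM in non-lipid-laden MDM, and at 67.7, 2.12, 7.31 and 62.3 CPM in lipid-laden microglia and 8.89, 0.108, 12.7 and 15.0 CPM in non-lipid-laden microglia. Neither was called in any comparison; with lipid load in microglia the log2 fold changes were 1.57 (SE 0.71) for Col4a1 and 1.92 (SE 1.25) for Col4a2.

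The pair lies head to head, and its promoter windows are shown because the ratio of the counts of the 2 genes differed widely between libraries. The RefSeq start sites lie 21 bases apart, and the windows (Col4a1, minus strand, chr8:11312777-11313076; Col4a2, plus strand, chr8:11312555-11312854; GRCm38.p6) share 78 bases, in capitals.
Col4a1: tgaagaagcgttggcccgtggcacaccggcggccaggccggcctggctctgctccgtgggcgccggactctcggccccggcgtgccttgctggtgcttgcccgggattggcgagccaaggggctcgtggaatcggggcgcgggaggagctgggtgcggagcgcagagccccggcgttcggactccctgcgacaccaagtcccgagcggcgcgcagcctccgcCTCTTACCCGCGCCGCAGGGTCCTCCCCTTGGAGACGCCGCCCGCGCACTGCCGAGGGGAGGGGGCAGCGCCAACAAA
Col4a2: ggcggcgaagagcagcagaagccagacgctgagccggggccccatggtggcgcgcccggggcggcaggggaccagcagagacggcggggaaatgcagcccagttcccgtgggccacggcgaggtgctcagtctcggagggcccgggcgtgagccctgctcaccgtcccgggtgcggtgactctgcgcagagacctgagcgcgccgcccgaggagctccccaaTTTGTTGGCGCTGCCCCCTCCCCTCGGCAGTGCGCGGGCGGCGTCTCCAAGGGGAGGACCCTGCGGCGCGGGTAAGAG
Summed over libraries, Col4a1 had 436 and Col4a2 119 counts in lipid-laden MDM, a ratio of 3.66, and 472 and 125 counts in non-lipid-laden MDM, a ratio of 3.78. In lipid-laden microglia the counts were 1633 and 1377, a ratio of 1.19, and in non-lipid-laden microglia 476 and 315, a ratio of 1.51. The exon lengths are 7464 bases for Col4a1 and 6619 bases for Col4a2, so length moves each ratio alike. Within MDM the counts of Col4a2 were 4, 95 and 20 with lipid load and 32, 87, 3 and 3 without, against 150, 159 and 127 and 148, 115, 43 and 166 for Col4a1, so that 4 of 7 libraries had 20 or fewer counts of Col4a2. Number 224 held most Col4a2 counts of both MDM groups, and without it, a choice made after seeing the data, the ratios were 11.5 with and 9.39 without lipid load, beside 1.17 and 1.43 in microglia. Per library they ran from 1.67 to 37.5 in lipid-laden MDM, 1.32 to 55.3 in non-lipid-laden MDM, 0.938 to 2.42 in lipid-laden microglia and 1.03 to 26.0 in non-lipid-laden microglia, so that the groups overlapped. The ratios are a description of counts and were not tested; the genes share 22 exon bases on opposite strands.

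**Figure D5:**
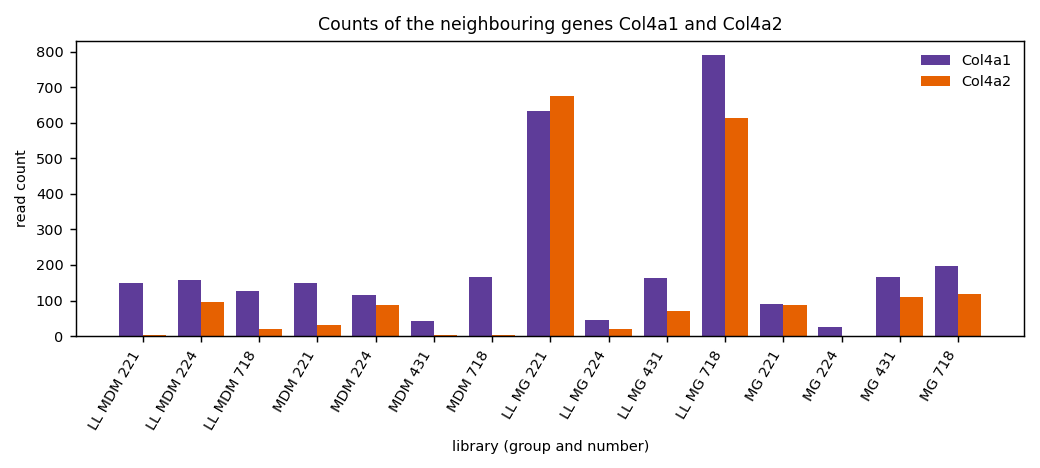
Read counts of the neighbouring genes Col4a1 and Col4a2 in each library (x axis, group and number; LL, lipid-laden; MG, microglia). Col4a1 exceeds Col4a2 in every library but lipid-laden microglia 221, where Col4a2 has 674 counts and Col4a1 632.

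The other collagen IV chains, Col4a3 to Col4a6, did not pass the filter. Col4a3 had 0 counts in lipid-laden MDM, 4 in non-lipid-laden MDM, 111 in lipid-laden microglia and 29 in non-lipid-laden microglia, and all 111 came from 1 library. Col4a4 had 0, 26, 11 and 19 counts, Col4a5 12, 0, 13 and 22, and Col4a6 0, 1, 18 and 16, in the same group order.

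Collagen VI forms beaded microfilaments near cells. Its genes were low in MDM, as were Col6a1 and Col6a2 in non-lipid-laden microglia. Col6a1 counts were 11, 12 and 15 in lipid-laden MDM, 0, 0, 0 and 0 in non-lipid-laden MDM, against 234, 0, 34 and 140 in lipid-laden microglia and 8, 0, 23 and 0 in non-lipid-laden microglia. Col6a2 had no count in any of the 7 MDM libraries, 162, 22, 28 and 84 counts in lipid-laden microglia and 0, 0, 0 and 16 in non-lipid-laden microglia. Between the lipid-laden groups, the counts of Col6a2 were at least 74.1-fold lower in MDM against 3 counts over that group, with an edgeR adjusted p of 0.106, and neither gene was called. Col6a3 was at 12.9, 1.08 and 0.0945 CPM in lipid-laden MDM and 0.233, 0, 5.73 and 0.0906 CPM in non-lipid-laden MDM. It was at 12.2, 16.2, 11.1 and 27.8 CPM in lipid-laden microglia and 25.0, 8.17, 7.01 and 8.72 CPM in non-lipid-laden microglia, and was not called either. Col6a4, Col6a5 and Col6a6 had no count in any library.

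Col8a1, a short-chain network collagen of vessel walls, was at 0.441, 0 and 2.36 CPM in lipid-laden MDM, 0, 1.21, 0 and 0 CPM in non-lipid-laden MDM, 17.1, 4.57, 16.5 and 34.0 CPM in lipid-laden microglia and 1.34, 0, 3.98 and 3.16 CPM in non-lipid-laden microglia. All 4 lipid-laden microglia libraries were above the non-lipid-laden ones, with a log2 fold change of 3.08 (edgeR adjusted p = 0.505, SE 1.35). Col8a2 had 15 counts, all in non-lipid-laden MDM. Col10a1 had 12 counts in lipid-laden MDM, none in non-lipid-laden MDM, 15 in lipid-laden microglia and 3 in non-lipid-laden microglia.

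Col14a1 was the only chain called higher in MDM than in microglia. It encodes collagen XIV, which binds to the surface of fibrils (ENSMUSG00000022371, chromosome 15, 55307750 to 55520803, mm10), and was at 20.4, 42.6 and 31.5 CPM in lipid-laden MDM and 13.9, 18.0, 11.6 and 8.15 CPM in non-lipid-laden MDM. In microglia it was at 6.23, 1.11, 1.13 and 4.88 CPM with lipid load and 1.55, 2.90, 1.99 and 4.17 CPM without. Every MDM library was above every microglial library, and the MDM groups did not overlap. The log2 fold change against microglia was 2.28 (edgeR adjusted p = 0.00808, SE 0.56) without lipid load and 3.23 (edgeR adjusted p = 0.00725, SE 0.60) with it, and both calls held without any 1 library. The call between the lipid-laden groups was lost with only these groups in the fit (adjusted p = 0.0522) and without all libraries of number 224 or 718 (up to 0.137), and that between the non-lipid-laden groups without number 224 (0.0545). Lipid-laden and non-lipid-laden MDM differed by 1.29 (edgeR adjusted p = 0.186, SE 0.57), which was not called. No other gene of the 35 had a call above microglia in MDM. Without a call, Col23a1 was also higher in MDM on the log2 scale, by 1.20 without and 2.21 with lipid load. Between the lipid-laden groups Col11a2 was higher in MDM too, by 1.61, and was not called.

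The other fibril-associated collagens were low. Col16a1 counts were 0, 11 and 26 in lipid-laden MDM, 9, 1, 0 and 0 in non-lipid-laden MDM, against 132, 28, 0 and 101 in lipid-laden microglia and 59, 102, 11 and 74 in non-lipid-laden microglia. Without lipid load its log2 fold change in MDM against microglia was -4.55 (SE 1.60), with an edgeR adjusted p of 0.0504, or 0.0265 with the replicate block (range over the alternatives 0.00768 to 0.233). Col19a1 had no count in non-lipid-laden MDM and 1, 22, 20 and 20 counts in non-lipid-laden microglia, at least 22.1-fold lower in MDM against 3 counts over the group (edgeR adjusted p = 0.0254; up to 0.0541 without non-lipid-laden MDM 224 or 718, where the call was lost). Lipid-laden MDM had 0, 0 and 6 and lipid-laden microglia 31, 0, 11 and 27 counts of it. Col9a3, a chain of collagen IX, was at 2.64, 0.541 and 4.25 CPM in lipid-laden MDM, 0.933, 3.73, 0 and 0.634 CPM in non-lipid-laden MDM, 3.51, 2.78, 7.41 and 3.56 CPM in lipid-laden microglia and 8.68, 1.40, 1.99 and 7.71 CPM in non-lipid-laden microglia.

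Col12a1 counts were 23, 0 and 0 in lipid-laden MDM, 0, 0, 0 and 0 in non-lipid-laden MDM, against 6, 12, 0 and 26 in lipid-laden microglia and 0, 0, 0 and 7 in non-lipid-laden microglia. Col20a1 counts were 0, 2 and 4 in lipid-laden MDM, 0, 0, 6 and 0 in non-lipid-laden MDM, against 0, 9, 25 and 7 in lipid-laden microglia and 24, 20, 5 and 20 in non-lipid-laden microglia. None of Col9a3, Col12a1 and Col20a1 was called. Col9a1 had no count, Col9a2 had 26 counts in lipid-laden and 16 in non-lipid-laden microglia and none in MDM, and Col22a1 had 11 counts in lipid-laden MDM, 3 in non-lipid-laden microglia and none in the other groups.

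Collagens XV and XVIII, the multiplexins, lie in basement membranes. Col18a1, whose end piece is endostatin, was at 1.32, 1.51 and 4.25 CPM in lipid-laden MDM and 2.10, 1.51, 0 and 0.181 CPM in non-lipid-laden MDM. Its levels were 10.4, 4.68, 14.7 and 42.9 CPM in lipid-laden microglia and 8.47, 5.27, 7.95 and 21.9 CPM in non-lipid-laden microglia, and no MDM library reached a microglial one. Without lipid load the log2 fold change was -3.50 (edgeR adjusted p = 0.0153, SE 0.96; 0.0519 without non-lipid-laden microglia 718), and between the lipid-laden groups it was -2.93 (edgeR adjusted p = 0.173, SE 1.03). Col15a1 was at 3.19, 2.27 and 3.50 CPM in lipid-laden MDM, 2.10, 1.41, 0.390 and 2.17 CPM in non-lipid-laden MDM, 2.61, 4.46, 12.3 and 6.51 CPM in lipid-laden microglia and 2.69, 4.73, 7.13 and 2.66 CPM in non-lipid-laden microglia, and was not called.

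Col7a1, the anchoring fibril collagen, was at 3.64, 0.649 and 0.756 CPM in lipid-laden MDM, 1.40, 1.71, 0 and 0 CPM in non-lipid-laden MDM, 20.2, 3.01, 6.59 and 18.6 CPM in lipid-laden microglia and 2.38, 4.62, 8.77 and 5.82 CPM in non-lipid-laden microglia. Of the transmembrane collagens, Col23a1 was tested, with counts of 21, 0 and 1 in lipid-laden MDM, 39, 49, 0 and 22 in non-lipid-laden MDM, against 0, 5, 0 and 1 in lipid-laden microglia and 32, 0, 14 and 0 in non-lipid-laden microglia. Neither was called. Col17a1 had 14 counts, all in non-lipid-laden MDM; Col25a1 had 24 in lipid-laden and 9 in non-lipid-laden microglia, and Col26a1 9 in each microglial group. Col2a1, the cartilage collagen, had 9 counts in lipid-laden MDM and 2 in lipid-laden microglia. Col13a1, Col24a1 and Col28a1 had no count in any library.

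Lox, the enzyme that oxidises lysines of collagen and elastin to start cross-linking (ENSMUSG00000024529, chromosome 18, 52516067 to 52529867, mm10), had no count in any of the 4 non-lipid-laden MDM libraries. It was at 8.37, 2.38 and 3.50 CPM in lipid-laden MDM, with counts of 76, 22 and 37. Microglia had 56.3, 12.4, 24.5 and 21.4 CPM with lipid load and 19.3, 8.17, 15.4 and 3.16 CPM without. All 3 lipid-laden MDM libraries were above non-lipid-laden MDM and all 4 lipid-laden microglia libraries were above the non-lipid-laden library of the same number, although the microglial groups overlapped. With 0 against 420 counts, Lox was at least 147-fold lower in non-lipid-laden MDM than in microglia against 3 counts over the group (edgeR adjusted p = 7.00e-05). With 135 against 0 counts it was at least 58.0-fold higher in lipid-laden than in non-lipid-laden MDM (edgeR adjusted p = 0.00103). Both calls held without any 1 library. In microglia the log2 fold change with lipid load was 1.31 (edgeR adjusted p = 0.554, SE 0.62), and the difference of the effects had an edgeR adjusted p of 0.0203, with a fitted value of 7.16 that depends on the prior count because a group is at 0; limma-voom did not call it (adjusted p = 0.149). Between the lipid-laden groups Lox was lower in MDM by -2.59 on the log2 scale (SE 0.73), with an edgeR adjusted p of 0.0912, or 0.0262 with the replicate block, whose numbers pair these groups (range over the alternatives 0.00722 to 0.337).

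Loxl3, another lysyl oxidase (ENSMUSG00000000693, chromosome 6, 83034173 to 83052562, mm10), was at 44.0, 16.9 and 21.5 CPM in lipid-laden MDM and 11.3, 7.96, 8.20 and 9.06 CPM in non-lipid-laden MDM. Its microglial levels were 51.3, 18.3, 57.7 and 35.1 CPM with lipid load and 62.3, 34.5, 24.9 and 24.5 CPM without. The non-lipid-laden MDM libraries lay below all others. They were lower than microglia by -2.0 on the log2 scale (edgeR adjusted p = 0.00236, SE 0.41), and lipid-laden MDM were above them by 1.59 (edgeR adjusted p = 0.0326, SE 0.43). The second call was lost without non-lipid-laden MDM 224, 431 or 718 or lipid-laden MDM 221 or 718 (up to 0.188), and without both lipid-laden libraries numbered 221 (adjusted p = 0.175, chosen after seeing the data) and with limma-voom (adjusted p = 0.136). Loxl3 shares 535 of its 4603 exon bases with Htra2 on the opposite strand, whose log2 fold changes in these comparisons were -0.07 and -0.05.

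The remaining lysyl oxidase genes had few counts and no call. Loxl1, the elastin cross-linker, had 16, 0, 17 and 79 counts in lipid-laden microglia and 15, 0, 11 and 5 in non-lipid-laden microglia, none in lipid-laden MDM and 19 in non-lipid-laden MDM 718 alone of its group. Loxl2, which also acts on collagen IV, had 1, 0 and 0 counts in lipid-laden MDM, 1, 0, 0 and 0 in non-lipid-laden MDM, against 26, 2, 10 and 12 in lipid-laden microglia and 0, 3, 10 and 10 in non-lipid-laden microglia. Loxl4 had 0, 1 and 0 counts in lipid-laden MDM, 2, 0, 5 and 0 in non-lipid-laden MDM, against 0, 0, 47 and 4 in lipid-laden microglia and 0, 0, 14 and 10 in non-lipid-laden microglia.

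The genes around these in collagen production were described by a list of 26 other genes of collagen biosynthesis, of which 22 were tested. In non-lipid-laden MDM against microglia 9 were lower and none was higher (median log2 fold change -1.38, against -0.12 over all genes, of which 12.5% were lower and 10.7% higher). Sparc, a collagen-binding matrix protein, had a mean level of 179 ± 121 CPM in these MDM, against 2248 ± 654 CPM in microglia (± SD, 4 libraries each; log2 fold change -3.65, edgeR adjusted p = 2.86e-05). Fkbp9, a relative of Fkbp14, stood at 2.89 ± 2.07 CPM in these MDM, against 32.8 ± 3.54 CPM in microglia (-3.52, edgeR adjusted p = 4.88e-05). The prolyl 4-hydroxylase subunits P4ha1 (-0.80, edgeR adjusted p = 0.00197) and P4ha2 (-3.36, edgeR adjusted p = 0.00308), the procollagen protease Bmp1 (-3.09, edgeR adjusted p = 0.0160) and P3h4, a partner of lysyl hydroxylase with 1 count in MDM and 141 in microglia (edgeR adjusted p = 0.00388), were lower too.

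Between the lipid-laden groups 1 gene of that list was called, P4hb, the other subunit of prolyl 4-hydroxylase, which was lower in MDM, as were 0.579% of all genes (-0.55, edgeR adjusted p = 0.0481) and kept its call in 2 of 15 fits without 1 library; the median was -0.80. With the replicate block P4ha2 was called there too (edgeR adjusted p = 0.0901, or 0.0300 with the block; range over the alternatives 0.0178 to 0.448). With lipid load in MDM 3 were higher and none was lower (median 0.82), against 5.21% of all genes higher and 2.96% lower. These were Fkbp9 (3.03, edgeR adjusted p = 0.000895), Sparc (2.12, edgeR adjusted p = 0.00696) and Crtap, a partner of prolyl 3-hydroxylase (1.42, edgeR adjusted p = 0.00945). In microglia none was called (median 0.37). The replicate block, whose numbers pair the microglial groups, called P4hb there (log2 fold change 0.44, edgeR adjusted p = 0.309, or 0.0208 with the block; range over the alternatives 0.0208 to 0.761). Fkbp9 was also the gene of the list whose lipid-laden effect differed between the origins (2.67, edgeR adjusted p = 0.0288), a call kept in 7 of 15 fits without 1 library.

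Of 14 genes of collagen receptors and uptake 10 were tested. The inhibitory collagen receptor Lair1 stood at 422 ± 99.5 CPM in non-lipid-laden MDM, against 755 ± 72.9 CPM in microglia (-0.84, edgeR adjusted p = 0.00222), and the uptake receptor Mrc2 at 0.371 ± 0.430 CPM in MDM, against 10.7 ± 6.05 CPM in microglia (-4.83, edgeR adjusted p = 0.00972). No other gene of this list was called there, so that 2 of 10 were lower, against 12.5% of all genes (median 0.13). Lair1 was higher in lipid-laden than in non-lipid-laden MDM (0.64, edgeR adjusted p = 0.0426), a call kept in 8 of 15 fits without 1 library, and the other comparisons called none. The mannose receptor Mrc1, which also takes up collagen, was called between the lipid-laden groups with the replicate block (log2 fold change 2.92, edgeR adjusted p = 0.111, or 0.0331 with the block; range over the alternatives 0.0331 to 0.356). Among 16 genes of other basement membrane parts, 13 were tested and 4 were lower in non-lipid-laden MDM than in microglia, against 12.5% of all genes (median -1.97): the laminin chains Lamc1 (-1.97, edgeR adjusted p = 0.00307) and Lamb2 (-4.33, edgeR adjusted p = 0.0148), the nidogen Nid2 (-2.60, edgeR adjusted p = 0.0206) and Pxdn, which cross-links collagen IV and had 0 counts in MDM and 58 in microglia (edgeR adjusted p = 0.0376). The other 4 comparisons called no gene of this list.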

How the data were processed

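Libraries were made by oligo-dT priming and template switching from RNA of sorted cells, per the labels' protocols. The deposited table holds the authors' whole-number read counts per gene, not normalized; mm10 is the build named in the submitters' processing notes. The aligner, the program that counted reads and its use of strand are not stated in the labels or header; overlapping genes could not be told apart. No column was left unused, and 1 row without a gene identifier held 0 counts. All 54 genes have the same coordinates in GENCODE M21, from which exon lengths were taken.

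Groups came from the titles. Counts of all 15 libraries entered 1 fit with a coefficient per group in edgeR 4.0.16 (R 4.3.3; quasi-likelihood test, TMM, filterByExpr with a minimum count of 10 and total of 15, Benjamini-Hochberg over 14843 genes); calls are adjusted p-values under 0.05. The fit was run on simulated independent libraries with changes planted in non-lipid-laden MDM and read between the non-lipid-laden groups. That run does not cover groups at 0 counts, libraries paired by number or the other comparisons. SE was derived from the log2 fold change and its F statistic, and is unreliable near 0 counts. Against a group at 0 counts a fold is a bound against 3 counts over the group; with 1 to 3 counts it is a ratio with a 95% exact binomial interval. Both cover counting error only. Separate cultures or animals are not stated, so p-values measure the spread between these libraries.

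The genes, lists and tests were chosen with earlier results of these data known. Every gene that passed the filter is given by library, except Col5a1, whose counts are given by group. Of the further lists, up to 6 genes with the smallest p in non-lipid-laden MDM against microglia are given, plus up to 4 called elsewhere. Same-numbered libraries deviated together in both microglial groups (r = 0.124 to 0.256, other numbers -0.200 to 0.0941). They also did in the lipid-laden groups (0.107 to 0.168, others -0.108 to 0.0291), so the numbers pair the libraries in both comparisons. Within MDM (0.0272 to 0.123, others -0.0767 to 0.0559) and between the non-lipid-laden groups (0.0152 to 0.150, others -0.134 to 0.0296) these ranges overlapped. Same-numbered values were positive there too, so these few pairs do not settle whether a weaker pairing is present. Alternatives were RLE size factors, no filter, DESeq2 1.42.0, limma 3.58.1 (voom), the replicate block, only the compared groups in the fit, and fits without 1 library or 1 number.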

Additional observations from a re-analysis of the deposited data

Results flagged for a closer look

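Of 99 sets of 4 libraries of the same group, 20 had a library far from the other 3 by Dixon's test at the 95% level. The test flags about 1 set in 20 by chance if values are normally distributed. Where the other 3 libraries are at 0, any count gives its largest statistic, so the number of flags cannot be read against that rate. In lipid-laden microglia, number 221 was the lowest for Plod1 at 529 CPM and the highest for Fkbp14 at 33.6 CPM, and number 431 was the highest for Col9a3 at 7.41 CPM and Loxl4 at 4.84 CPM. In non-lipid-laden MDM, number 431 was the highest for Plod3 at 106 CPM, Col6a3 at 5.73 CPM, Col20a1 at 0.781 CPM and Col5a2 at 0.130 CPM. There number 221 was the highest for Col16a1 at 1.05 CPM and Loxl2 at 0.117 CPM, number 224 for Col8a1 at 1.21 CPM and Col5a1 at 0.101 CPM, and number 718 for Loxl1 at 1.72 CPM. In non-lipid-laden microglia, number 718 was the highest for Col5a1 at 2.15 CPM, Col6a2 at 2.02 CPM, Col12a1 at 0.885 CPM and Col5a3 at 0.632 CPM. Number 221 was the highest there for Col6a3 at 25.0 CPM and Col5a2 at 8.78 CPM and the lowest for Col19a1 at 0.103 CPM. Several of these values rest on 1 to 6 counts, with the other 3 libraries at or near 0. Some with more counts, such as Col6a2 with 16 and Col8a1 with 12, also had the other 3 libraries at 0.

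Lipid load went with unequal changes in MDM and microglia for 3 genes by the interaction test. The log2 differences were 4.38 for Fkbp14 (edgeR adjusted p = 0.0140), 7.16 for Lox (edgeR adjusted p = 0.0203; non-lipid-laden MDM at 0 counts) and 0.91 for Plod1 (edgeR adjusted p = 0.0359).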

How the results depend on the processing

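The number of the 35 genes called was 12 between non-lipid-laden MDM and microglia, 3 between the lipid-laden groups, 0 within microglia, 6 within MDM and 3 for the difference of the lipid-load changes. In that order, and beside these, RLE size factors gave 12, 3, 0, 6 and 3, no filter on low counts 13, 3, 0, 6 and 2, DESeq2 17, 6, 0, 8 and 4, limma-voom 12, 4, 0, 4 and 2, and the replicate block 13, 4, 0, 7 and 4. Over all 14843 genes the main fit called 3442, 413, 0, 1213 and 375. RLE size factors called 3447, 406, 0, 1215 and 380 of them, and limma-voom 3639, 561, 0, 1460 and 424. Without the filter the calls were 3060, 434, 17, 1072 and 377 of 26717 genes. Fits of only the 2 groups compared gave 10, 2, 0 and 7. Over all genes these fits called 3362 of 12671, 176 of 13056, 0 of 12785 and 1176 of 12791. Without both lipid-laden libraries numbered 221, an alternative chosen after seeing the data, the counts were 13, 2, 0, 5 and 3, and Fkbp14 between the lipid-laden groups (adjusted p = 0.190) and Loxl3 within MDM (adjusted p = 0.175) lost their calls. Over all 15569 genes that fit called 3813, 337, 0, 1059 and 286. Fits without 1 library gave 8 to 14, 1 to 3, 0 to 0, 4 to 7 and 2 to 3. Over all genes they called 2755 to 3674, 168 to 431, 0 to 64, 657 to 1383 and 186 to 452. Fits without all libraries of 1 number gave 6 to 12, 0 to 2, 0 to 0, 3 to 7 and 0 to 3. Calls over all genes moved too, to 1679 to 3208, 104 to 376, 0 to 6, 243 to 1035 and 2 to 311. The lowest of these were without number 718, of 15277 genes tested. Fewer samples entered these fits.

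Among the 35 genes the replicate block added Lox between the lipid-laden groups, Col16a1 between the non-lipid-laden groups, Col5a2 within MDM and Col11a1 for the difference of the changes, and lost no call. Of 156 log2 fold changes of genes in the comparisons that called them, and of Lox and Fkbp14 in all 5, under settings that left out no library of the groups compared, 144 kept their side of the threshold, 10 lost it and 2 gained it, and none changed sign. Calls that an alternative added for other genes and comparisons are in the counts above and not in these 156. With limma-voom Col1a1, Col27a1 (adjusted p = 0.0556) and Col5a2 (0.356) were lost between the non-lipid-laden groups, Col11a1 (0.178), Col1a1 and Loxl3 (0.136) within MDM, and Lox (0.149) for the difference of the changes. Plod1 was lost for that difference without the filter (0.0532), and Col14a1 (0.0522) and Plod1 (0.0945) between the lipid-laden groups when only these were fitted; the cause was not tested. With 3 counts in each library as the floor, the bound of Lox was 36.8-fold between the non-lipid-laden groups and 14.5-fold within MDM. Genes with counts in few libraries limit what these data can show.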
